A study of Homo sapiens with 18 samples.

Results

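The La-related proteins (LARPs) are RNA-binding proteins that share a La motif, and 6 of their genes were looked up by symbol in the site lists: LARP1, LARP1B, LARP4, LARP4B, LARP6 and LARP7. Of these, 4 held a listed site and 2 held none. Together they had 40 distinct U-tracts (runs of at least 5 uridines) of the 15024 in either list, and they are 4 of the 4469 genes with a listed U-tract. The genes were chosen with earlier results of these lists known, so their site numbers, regions, tract lengths and motif positions are given as a description and without a test.

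Several LARP proteins act on RNA ends and tails. LARP1 binds the cap and the terminal oligopyrimidine motif of mRNAs and is controlled by mTOR. LARP4 and LARP4B bind mRNAs together with poly(A)-binding protein and favour stability or translation. LARP6 binds a stem-loop of collagen mRNAs, and LARP7 holds the 3' end of 7SK, the small nuclear RNA that restrains transcription elongation. Here the LARP genes appear as targets, since the lists give places in their own transcripts where the nuclear protein hnRNP C was mapped near a possible methylation site. N6-methyladenosine (m6A) is written in RRACH motifs (R, A or G; H, A, C or U) by METTL3 with METTL14, and an m6A switch is a site where this mark opens the RNA around a U-tract so that hnRNP C can bind it.

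All samples came from HEK293T, a human embryonic kidney cell line. The hnRNP C antibody groups were wild type input and IP of PARCLIP-MeRIP (crosslinked RNA enriched with an m6A antibody) and PAR-CLIP of wild type control, METTL3 knockdown and METTL14 knockdown cells. RNA-seq was made from wild type control, HNRNPC, METTL3 and METTL14 knockdown cells, which gives 18 samples in 9 groups of 2. The knockdown reagent is not given in the labels, the efficiency was not analysed here, and nothing ties the replicates to separate cultures. The values used are 2 lists of sites that carry no value per sample, so read depth is unknown and no change between groups could be measured. The switch list comes from PARCLIP-MeRIP, the other list is named HCS by the submitters, and how either was drawn from the reads is not given in the sources used here. Whether the lists as used here are complete is not known, so site numbers, ranks and absences hold for these lists only. Both pair a U-tract with an RRACH motif at a listed distance of at most 50 nt, and positions are on hg19.

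LARP4B carried the most sites of the family in both lists, and LARP6 and LARP7 were in neither. LARP4B held 15 switch U-tracts, LARP1 held 8, LARP4 held 7 and LARP1B held 3, which makes 33. In the HCS list LARP4B held 7 U-tracts, LARP1 held 3, LARP4 held 1 and LARP1B held none, which makes 11. LARP4B thus gave 7 of the 11 HCS sites of the family, and without it 18 switch and 4 HCS U-tracts remain. An absence from these lists says only that no U-tract and motif pair was listed, and whether LARP6 and LARP7 are transcribed in these cells was not analysed here.

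Across all genes, the median gene with a switch site held 2 switch U-tracts and the median gene with an HCS site held 1. Counting LARP4B itself, 85 of the 4187 genes in the switch list reached its number of switch U-tracts, and 7 of the 1816 genes in the HCS list reached its number of HCS U-tracts. LARP1 was one of 398 genes with at least as many switch U-tracts and of 233 with at least as many HCS U-tracts, and LARP4 was one of 504 by switch U-tracts. Of the 4 LARP genes with a switch site, 3 also held an HCS site, against 36.6% of all genes with a switch site. Genes with the same number of switch U-tracts give a closer reference.

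Among the 13 other genes with exactly 15 switch U-tracts, the number of HCS U-tracts ran from 0 to 6 with a median of 3, so none reached the 7 of LARP4B. LARP4B was chosen for its high HCS number, and this rank is therefore no independent result. LARP1, with 3 HCS U-tracts, compares with a median of 1 and a maximum of 5 in 82 other genes that hold 8 switch U-tracts, of which 13 have as many or more. LARP4, with 1, equals the median of 1 in 105 other genes with 7 switch U-tracts. LARP1B, with none, equals the median of 0 in the 514 other genes with 3, of which 198 have an HCS site. LARP1, LARP4 and LARP1B therefore lie inside the range of genes like them in switch number, with LARP1 above its median.

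**Figure D1:**
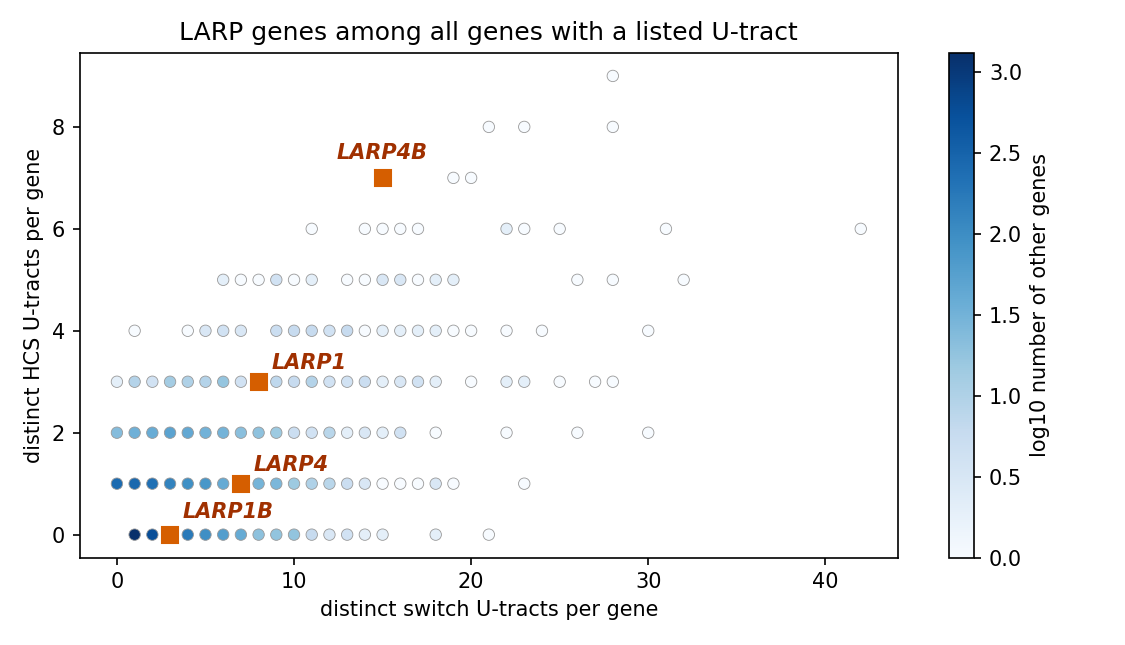
Number of distinct switch U-tracts (x axis) and HCS U-tracts (y axis) per gene, with squares for the 4 LARP genes with a site and circles for other genes, shaded by the log10 number of genes at that point. LARP4B at 15 and 7 lies above the other genes with 15 switch U-tracts, which end at 6, while LARP1, LARP4 and LARP1B lie among many genes.

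By the sum of the differences in both numbers, the gene outside the family nearest to LARP4B was FAM208A with 15 switch and 6 HCS U-tracts. ATXN2 with 14 and 6 and CNOT1 with 15 and 5 followed, at a summed difference of 2. They tied with other genes, among them 1 with 16 and 6, and were taken because they come first in the alphabet. CNOT1 is the scaffold of the CCR4-NOT complex that shortens poly(A) tails, and ATXN2 is an RNA-binding protein. LARP4 shared its pair of numbers, 7 and 1, with 36 other genes, of which ANKFY1, AP3D1 and ARHGEF12 come first in the alphabet. Likeness was measured on these 2 numbers alone and not on what the genes do, with no sample behind it.

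The lists met at 4 of the family's U-tracts, 3 in LARP4B and 1 in LARP1. These are 36.4% of its 11 HCS U-tracts (exact binomial 95% interval 10.9% to 69.2%), against 40.1% of all HCS U-tracts. They are 12.1% of its 33 switch U-tracts (interval 3.40% to 28.2%), against 8.24% of all switch U-tracts. Both intervals contain the value over all genes. U-tracts of a gene share a transcript and are not independent, so the intervals cover counting error only and leave out errors of site calling. At each of the 4 shared U-tracts the lists named the same RRACH motif.

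LARP4B lies on the minus strand of chromosome 10, and its 19 U-tracts were spread over 118625 nt of the unspliced transcript NM_015155, from position 1407 to position 120031. The only exonic HCS site of the family is also the last of its tracts along the transcript, a run of 8 uridines at 857614 to 857621. It was in both lists, and its RRACH motif at 857627 to 857631 lies 5 nt upstream of the tract. The other shared sites of LARP4B were intronic, with 5 nt tracts at 904290 to 904294, where the motif begins 40 nt downstream, and at 973673 to 973677, where it ends 11 nt upstream.

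LARP4B also held 4 HCS U-tracts that the switch list lacked, all intronic. The tract at 883837 to 883842 is 6 nt long and touches its upstream motif, with a gap of 0 nt. That at 969740 to 969744 had its motif 28 nt downstream, and that at 974433 to 974437 had it 46 nt downstream. The tract at 976234 to 976238, only 1407 nt into the transcript, had its motif 14 nt upstream. The nearest switch U-tracts were 2115, 2952, 756 and 2557 nt away, so none of these is a neighbour within 100 nt. Of the 7 HCS U-tracts of LARP4B, 4 lay between transcript positions 1407 and 7905, before every other listed tract of the gene, and 1 of these, at 973673, was in the switch list.

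The 12 LARP4B U-tracts found in the switch list alone lay between positions 10857 and 111421 of the transcript. They included the longest tract of the family, 9 uridines at 961365 to 961373 with the motif 9 nt upstream, and an 8 nt tract at 906760 to 906767 with the motif 19 nt downstream. A pair at 966725 to 966729 and 966784 to 966788 was the only one of the gene closer than 100 nt, and each tract had a motif of its own. The longest stretch between successive switch U-tracts was 22567 nt. The region of tracts in the switch list alone is not in that list, so exonic and intronic numbers could not be given for them.

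**Figure D2:**
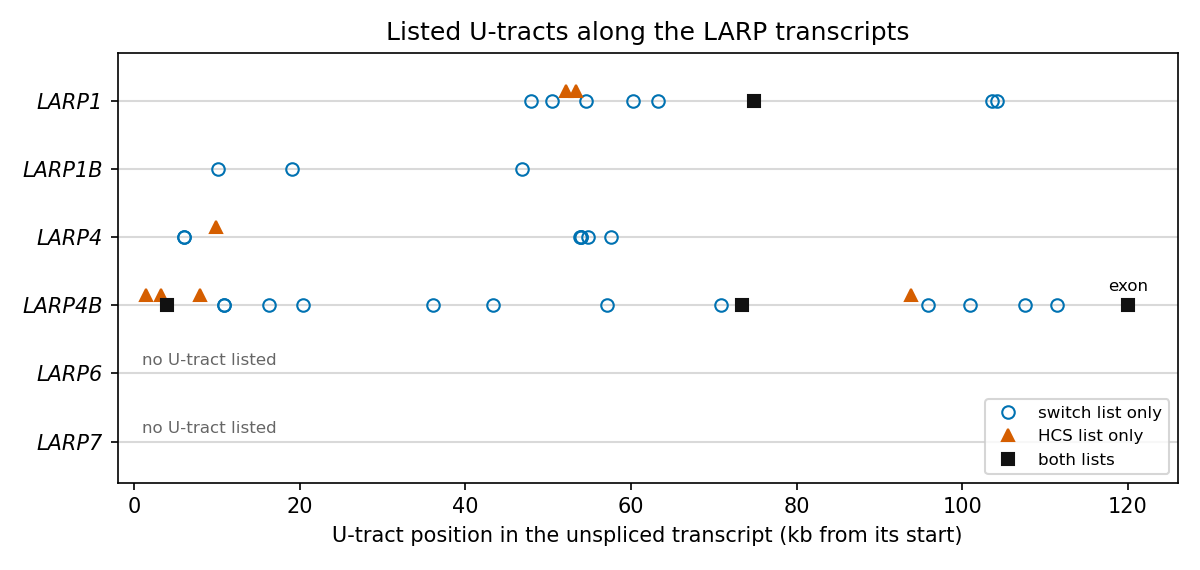
Position of each listed U-tract in the unspliced transcript, in kb from its start as listed, with 1 line per LARP gene; open circles are in the switch list alone, triangles in the HCS list alone and squares in both. LARP4B has tracts along its whole listed span, LARP1 has none before position 47882, and in LARP4 most tracts lie after position 53826; tracts closer than 100 nt overlap in the drawing.

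LARP1, on the plus strand of chromosome 5, held 10 U-tracts between positions 47882 and 104249 of the unspliced transcript NM_015315. Its site in both lists was an intronic tract of 5 uridines at 154167318 to 154167322 with the motif 4 nt downstream. The HCS list added intronic tracts at 154144572 to 154144576, with the motif 24 nt upstream, and at 154145833 to 154145837, with the motif 36 nt upstream. These were 1635 and 1208 nt from the nearest switch U-tract. All 3 HCS tracts of LARP1 were 5 nt long.

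The 7 LARP1 tracts in the switch list alone began at 154140342, 154142933, 154147045, 154152674, 154155756, 154196074 and 154196704. Their gaps were 8 and 27 nt downstream for the first pair and 11, 36, 6, 35 and 33 nt upstream for the others. Over both lists the motif was upstream of the tract in 7 of 10 LARP1 pairs. A stretch of 28751 nt without a switch U-tract separated the last pair of tracts from the rest.

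LARP1B, the relative of LARP1 on the plus strand of chromosome 4, held 3 switch U-tracts, each of 5 uridines. They were at 128992510 to 128992514 with the motif 13 nt downstream, at 129001547 to 129001551 with the motif 39 nt upstream, and at 129029280 to 129029284 with the motif 7 nt upstream. Spacings of 9032 and 27728 nt separated them. In the switch list the motif lay upstream in 2 of 3 LARP1B pairs and in 5 of 8 LARP1 pairs.

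LARP4, on the plus strand of chromosome 12, was the member in which sites lay closest together. Its 7 switch U-tracts formed 2 sets, with 2 tracts at positions 6077 to 6089 of the transcript and 5 within 3825 nt that began at position 53826, and 47736 nt lay between the sets. The tracts at 50800667 to 50800671 and 50800675 to 50800679, with 3 nt between them, shared a motif at 50800635 to 50800639, which lies 27 and 35 nt upstream. Those at 50848596 to 50848600 and 50848607 to 50848611 shared a motif at 50848626 to 50848630, which lies 25 and 14 nt downstream. The 7 tracts thus stood for 5 motifs, and merging tracts within 100 nt left 5 clusters.

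The other switch U-tracts of LARP4 were an 8 nt tract at 50848416 to 50848423 with the motif 11 nt upstream, a 5 nt tract at 50849400 to 50849404 with the motif 3 nt downstream, and a 6 nt tract at 50852235 to 50852240 with the motif 17 nt downstream. The gap of 3 nt was the smallest of the family in the switch list. The only HCS site of LARP4, an intronic 5 nt tract at 50804498 to 50804502 with the motif 27 nt downstream, lay 3819 nt from the nearest switch U-tract and outside both sets.

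The region was given for the 11 HCS U-tracts, and 10 of them were intronic. The exonic share was 9.09% (1 of 11, exact binomial 95% interval 0.230% to 41.3%), against 17.0% of all HCS U-tracts. The exonic tract was in the switch list, as were 3 of the 10 intronic ones. Over all genes the switch list held 58.0% of the exonic and 831 of the 2281 intronic HCS U-tracts.

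Most LARP tracts had the minimum length. Of the 40 U-tracts, 32 were exactly 5 nt long (80.0%, interval 64.4% to 90.9%), against 64.2% of the 15024 tracts in either list. The interval starts just above the value over all genes, but the genes were chosen with tract length in view, and tracts of a gene are not independent. Tracts of 8 nt or more numbered 4 (10.0%, interval 2.79% to 23.7%), 3 in LARP4B and 1 in LARP4, against 9.58% over all genes.

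The motif lay downstream of the tract in 19 of the 40 LARP pairs (47.5%, interval 31.5% to 63.9%), against 59.3% of all pairs, a value inside the interval. By gene it was downstream in 10 of 19 pairs in LARP4B, 5 of 8 in LARP4, 3 of 10 in LARP1 and 1 of 3 in LARP1B. In the switch list the median gap of the LARP pairs was 15 nt, with a range of 3 to 48 nt, against a median of 17 nt over all genes. In the HCS list the median was 24 nt, with a range of 0 to 46 nt, against 11 nt over all genes.

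HCS gaps of at most 10 nt were found in 3 of 11 LARP pairs (27.3%, interval 6.02% to 61.0%), against 48.6% of all HCS pairs, which lies inside the interval. These 3 were the exonic site and the touching site of LARP4B and the shared site of LARP1. Among the 4 tracts in both lists, gaps were 5, 11 and 40 nt in LARP4B and 4 nt in LARP1. Among the 7 in the HCS list alone the median was 27 nt.

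**Figure D3:**
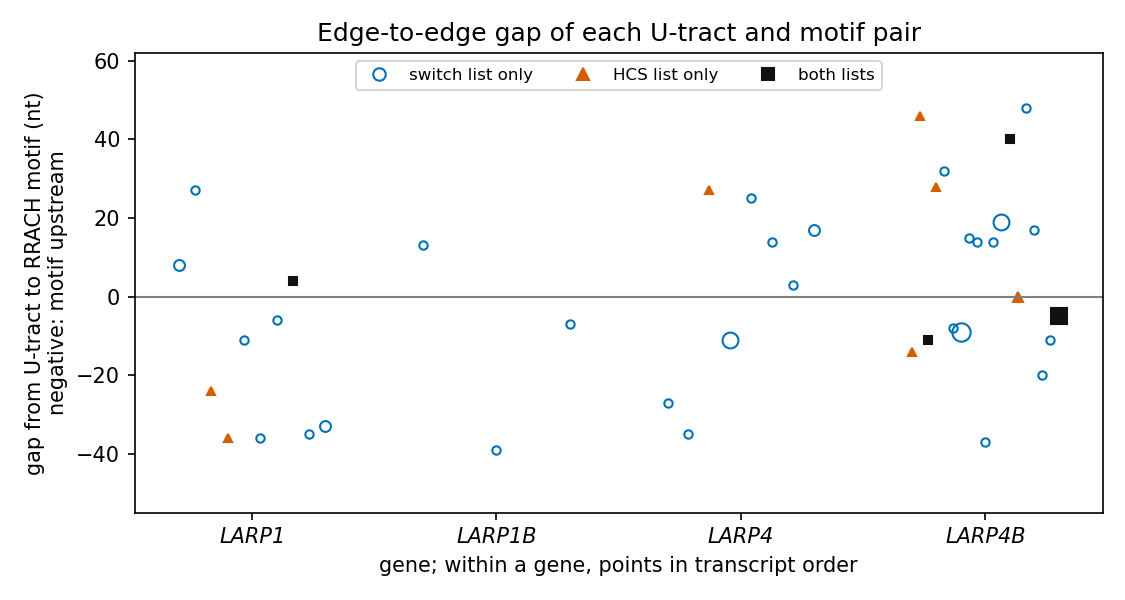
Edge-to-edge gap in nt between each U-tract and its RRACH motif (y axis, positive for a motif downstream and negative for one upstream) for the 4 LARP genes with a site, in transcript order within a gene and with larger symbols for longer tracts. In LARP1, 7 of 10 pairs lie below 0, while LARP4B has 10 of 19 motifs downstream; symbols mark the switch list alone, the HCS list alone and both lists.

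Some single gaps recur over all genes, and with 40 pairs each is met once or not at all in the family. A downstream gap of 40 nt occurred once (2.50% of LARP pairs, 2.63% of all pairs), at the shared LARP4B tract at 904290. One of 48 nt also occurred once (2.50% against 1.71%), at the LARP4B switch tract at 881718 to 881722, and one of 13 nt once (2.50% against 2.22%), in LARP1B. A downstream gap of 5 nt (2.61% of all pairs) and an upstream gap of 28 nt (1.42% of all pairs) did not occur. The touching pair of LARP4B was the only one with a gap of at most 0 nt (2.50% against 6.18%). Of the 38 LARP motifs, 2 had more than 1 U-tract (5.26%), both in LARP4, against 13.7% of all 13054 motifs. Another switch U-tract within 100 nt was found for 6 of the 33 LARP switch tracts (18.2%), 4 in LARP4 and 2 in LARP4B, against 30.8% of all. None of the 11 LARP HCS tracts had an HCS neighbour that close, against 6.26% of all.

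Genes that work with LARP proteins were read from a list of 27 chosen from general knowledge. Of these, 18 held a switch U-tract and 9 of the 18 also held an HCS U-tract (50.0%), against 36.6% of all genes with a switch site. These 18 genes had a median of 4.5 switch U-tracts, above the median of 2 over all genes, so the shares do not compare like with like. Genes without a listed site were not counted over the genome, so the numbers with a switch site have no share to be read against. For poly(A) tail binding and shortening, the setting of LARP4 and LARP4B, 6 of 8 genes held a switch site, and 4 of the 6 (66.7%) held an HCS site, with a median of 4.5 switch U-tracts. CNOT1 had 15 switch and 5 HCS U-tracts, and PAN3, a subunit of the PAN2-PAN3 deadenylase, had 8 and 3. PABPC1, the main cytoplasmic poly(A)-binding protein, had 5 and 2, and GNB2L1, the older symbol of the ribosomal scaffold RACK1, had 2 and 1. Each of these HCS sites was intronic. CNOT7 had 4 switch U-tracts and PABPC4 had 1, both without an HCS site, while PAN2 and CNOT8 were in neither list.

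Around LARP1, 5 of 7 genes of mTOR signalling and cap-dependent translation held a switch site, with a median of 8 switch U-tracts. Of the 5, 2 held an HCS site. The 36.6% of all genes with a switch site is no like reference, since their median was 2 switch U-tracts. Among the 82 genes other than LARP1 with exactly 8 switch U-tracts, 62 held an HCS site. A share from 5 genes is too coarse to be placed against either value. RPS6KB1, the S6 kinase, had 15 switch and 2 HCS U-tracts, and RPTOR, the mTOR partner that recruits substrates, had 8 and 1. The cap-binding protein gene EIF4E had 8 switch U-tracts and no HCS site, while MTOR and EIF4G1 had neither. Around LARP7, 5 of 7 genes of the 7SK particle and La (SSB) held a switch site, with a median of 2 switch U-tracts. CCNT1, a cyclin of the elongation kinase, was the only one of the 5 with HCS sites (20.0%, against 36.6% of all genes with a switch site). This share also rests on 5 genes and is too coarse to be placed against that value. CCNT1 had 9 switch U-tracts and 2 HCS U-tracts, and these 2 were exonic and in the switch list. CCNT2 had 7 switch U-tracts and no HCS site.

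For LARP6, the collagen genes COL1A1 and COL1A2 and VIM had no listed site. The RNA helicase gene DHX9 had 8 switch and 1 HCS U-tract, and STRAP had 1 of each, its HCS site exonic. Thus 2 of 5 genes held a switch site, with a median of 4.5 switch U-tracts. Both held an HCS site (100%, against 36.6% of all genes with a switch site), a share that rests on 2 genes. How many U-tracts and how much RNA each of these genes has was not analysed here.

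**Figure D4:**
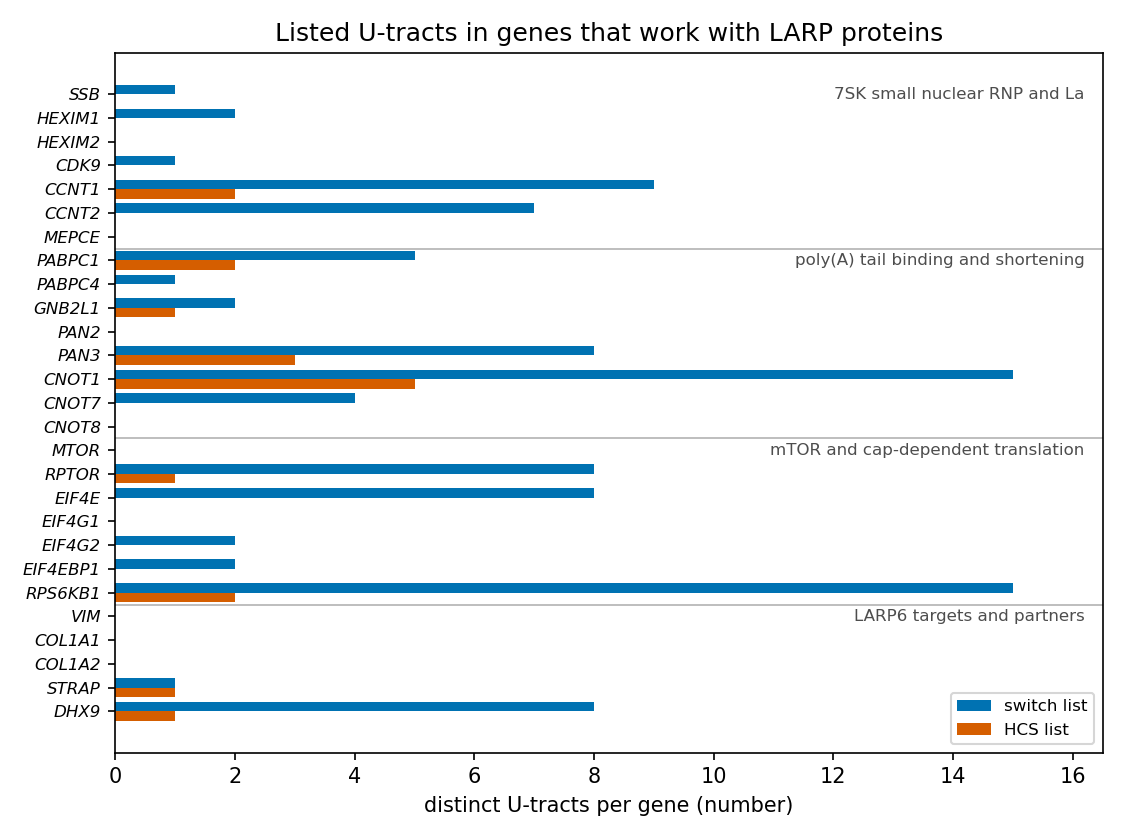
Distinct U-tracts per gene (x axis, number) in the switch list (upper bar of each pair) and in the HCS list (lower bar) for the 27 genes that work with LARP proteins, in 4 groups. CNOT1 and RPS6KB1 have the longest switch bars at 15, CNOT1 the longest HCS bar at 5, and no bar is drawn for a gene without a listed site.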

How the data were processed

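Lists of sites from hnRNP C PAR-CLIP and PARCLIP-MeRIP of HEK293T cells were used. The submitters' processing notes name hg19, Bowtie 1.0.0 and Trimmomatic; for RNA-seq they also name DESeq, Cuffdiff, Cufflinks and TopHat 1.1.4. How sites were called and whether replicates were pooled was not stated. The columns the authors deposited are, per the file headers, positions, lengths and distances in nt, with exon or intron for HCS entries only.

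Entries (17352 switch, 2798 HCS) were reduced to 13378 and 2748 distinct U-tracts, with 3 Y chromosome copies of X chromosome sites counted once. LARP entries were counted by listed symbol. In all entries, a missing symbol was found from its transcript with RefSeq names of GRCh38 (753 of 756 switch and 4 of 4 HCS entries). For LARP1B this found 3 more switch entries, which added no U-tract and are not in its count of 6 entries. A gap is the number of bases between tract and motif. It equalled the listed distance in every entry once the 5 nt of an upstream motif were taken off. The motif's listed transcript position is 1 lower in the switch list than chromosome positions give, so the latter were used.

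The members and lists were chosen with earlier results of these data known. Named genes are the 6 members, partner genes with an HCS site or with the most switch sites, and the 3 genes nearest to LARP4B and to LARP4 in site number. Ties in nearness were broken by the alphabet. MTOR, EIF4G1, CCNT2, CNOT7, PABPC4, PAN2, CNOT8, VIM and the collagen genes were named after their values were seen. Intervals are exact binomial (Clopper-Pearson) at 95%, and no test was run. No genome of the files' build was used, so no sequence is shown. Computations used Python 3.11.15 with pandas 2.3.3 and numpy 2.4.6, intervals scipy 1.17.1, and figures matplotlib 3.10.9.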

Additional observations from a re-analysis of the deposited data

How the results depend on the processing

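No paired analysis was possible because the lists hold no values per sample, so no replicate could be left out either. Of 28 alternative values for the family, 21 stayed within 1.5 times the count, the interval of the share or the middle range of the gaps, and 7 did not. Some of the 21 could not move and say nothing about stability. Each LARP U-tract had a single motif, so taking its nearest motif changed nothing, and symbols found by transcript added no LARP U-tract. Without LARP4B the family kept 18 switch and 4 HCS U-tracts, 1 U-tract in both lists and 0 exonic HCS sites, and all of its HCS U-tracts (100%) were 5 nt long. Counting tracts of at least 8 nt in place of exactly 5 nt is another quantity and gave 12.1% in the switch list and 9.09% in the HCS list. Counting entries doubled LARP4 from 7 to 14 and LARP1B from 3 to 6, because each site is listed under more than 1 transcript. Leaving out LARP4B for gaps, lengths and motif side, and counting in partner genes only HCS tracts that are also switch tracts (6 genes with a site, against 9), were chosen after the data were seen. How depth shaped the lists was not measured, since they give none.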
